A study of Mus musculus with 21 samples.

Results

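The regeneration transcription factors described here are 10 genes whose products are known to turn on, or in the case of Klf4 to restrain, the growth programme of injured neurons: Atf3, Jun, Sox11, Klf6, Klf4, Smad1, Myc, Cebpd, Creb3 and Klf7. They were chosen by symbol, as known factors of axon regeneration, among 45664 genes in the count table. All 10 were among the 22294 genes that passed the filter on low counts. Earlier results of these data were known when these genes and the related lists below were chosen. Their counts beside the shares of all genes are therefore descriptions. RNA was taken from the ventral pons, the piece of brainstem that holds the facial nucleus, in C57BL/6 mice of the line CX3CR1GFP/wt, in which 1 copy of the microglial receptor gene Cx3cr1 carries GFP; every group shares this allele. The right facial nerve was cut at the stylomastoid foramen at 8 weeks of age, and the lesioned right side and the contralateral left side were taken on day 7 (age 9 weeks), day 14 (10 weeks) and day 30 (12 weeks). Left pons of unoperated mice of 8 weeks was the day 0 baseline. Each of these 7 groups held 3 libraries, 21 in all, and the labels do not say that replicates were separate animals, so the p-values measure the spread between these samples. The side of the brain goes with the lesion, and age goes with the day, so those cannot be told apart. By the column names, days 0 and 7 share a sequencing lane number and days 14 and 30 have 1 each. The index sequences ACAGTG and GCCAAT occur on both day 0 and day 7 under the shared number, so those libraries were not read together in 1 lane. Sequencing lane or run and day therefore cannot be told apart for any day. The piece of pons also holds reticular and trigeminal nuclei, glia and vessels; in such bulk tissue a change in the number of cells of a type and a change in RNA per cell cannot be told apart.

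After a peripheral nerve is cut, stress signals that travel back along the axon, among them the kinases DLK and JNK, reach the cell body and switch on transcription factors. Jun and Atf3 are leucine-zipper proteins that pair with each other and bind AP-1 and CRE elements, and Jun in neurons is needed for efficient regrowth of the facial nerve. Sox11, a factor of developing neurons, returns in adult neurons with cut peripheral axons. Within the Krüppel-like factors, Klf6 and Klf7 favour axon growth and Klf4 holds it back, Smad1 carries BMP signals to the nucleus, and Myc drives cell growth.

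Total counts per library ran from 35874913 to 41448945 on day 0 and from 17358868 to 29827291 in the operated groups. Mitochondrial genes took 3.05% to 3.60% of the counts on day 0, 3.62% to 4.45% on day 7, 2.81% to 4.76% on day 14 and 5.84% to 7.29% on day 30. The names of the day 30 count columns carry the opposite side to the labels, and the sample descriptions reassign them; with that reassignment the 3 day 30 lesion libraries held 300, 492 and 493 Atf3 counts and the 3 contralateral libraries 38, 33 and 30. A fold or log2 difference below comes from edgeR's quasi-likelihood test over all 21 libraries unless a sentence names another test, adjusted p is Benjamini-Hochberg over the 22294 genes, and a gene is called where that p is under 0.05. Levels are CPM, counts scaled to a common depth with TMM-scaled library sizes, and per length as RPKM (CPM per kilobase of the gene's counted length), the scale on which genes are compared with each other. Markers of motor neurons and microglia were present, none of 8 for either being at 0 in any group, and so were those of choroid plexus, meninges, cerebellar granule cells and Schwann cells, so presence alone does not mark this piece off from neighbouring tissue. Summed over 8 markers, microglia stood at 401 to 484 CPM in the 9 lesion libraries and at 264 to 319 CPM in the 9 contralateral ones. Of the 8, 8, 7 and 6 were called higher on days 7, 14 and 30, where 1.56%, 2.58% and 1.04% of all genes were. Motor neuron markers summed to 457 to 610 CPM on the lesioned and 537 to 788 CPM on the contralateral side. Of these 8, 1, 5 and 3 were called lower (0.0942%, 1.31% and 0.121% of all genes) and 0, 1 and 0 higher. In either direction, 7, 7 and 6 of the 8 had an unadjusted p under 0.05 by edgeR (7.31%, 18.4% and 7.75% of all genes). DESeq2 called 4, 7 and 5 of them (1.83%, 4.69% and 1.35% of all genes). Choroid plexus markers ran from 600 to 6660 CPM among the day 7 lesion libraries, replicate 3 being the highest; without it the day 7 differences were 5.84 for Atf3, 0.55 for Jun and 1.45 for Sox11, all called. They stood at 1930 CPM in contralateral replicate 3 of day 14, against 708 and 717 CPM in the other libraries of that group, and without it the day 14 differences were 5.80 for Atf3, 0.60 for Jun and 1.28 for Sox11, all called. T cell markers were low on both sides, summing to 1.51 to 4.44 CPM on the lesioned and 1.14 to 1.97 CPM on the contralateral side. By edgeR 1, 1 and 3 of 8 were called higher on days 7, 14 and 30, and DESeq2 called 1, 1 and 1. The part of these shifts in the results below was not tested, except where a value without a library is given.

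Promoter windows were available in RefSeq (GRCm38.p6) for 8 of the 10 genes, not for Myc and Cebpd: 250 bases before and 50 bases after the annotated start, on the gene's strand. The 4 shown are those of the 3 genes called between the sides and of Klf6, which shares a motif with Jun and Sox11. Capitals mark a match to TGACATCA (TGATGTCA on the other strand), the AP-1-like octamer known from the promoter of Jun, or, in Atf3, the reverse complement of TGACGT, the core of the CRE; the search covered both strands, and positions count from the annotated start, negative before it.

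Atf3: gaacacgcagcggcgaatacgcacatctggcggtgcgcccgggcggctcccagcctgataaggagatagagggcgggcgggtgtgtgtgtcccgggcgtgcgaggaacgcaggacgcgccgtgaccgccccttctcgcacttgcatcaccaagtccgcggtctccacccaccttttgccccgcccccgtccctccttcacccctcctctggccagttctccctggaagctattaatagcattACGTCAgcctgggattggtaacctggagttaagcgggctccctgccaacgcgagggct

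Jun: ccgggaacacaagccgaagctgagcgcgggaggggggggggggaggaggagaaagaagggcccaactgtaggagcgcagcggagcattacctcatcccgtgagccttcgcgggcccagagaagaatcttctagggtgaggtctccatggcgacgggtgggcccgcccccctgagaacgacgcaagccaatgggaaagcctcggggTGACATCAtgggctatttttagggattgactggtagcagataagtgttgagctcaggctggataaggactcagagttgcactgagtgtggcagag

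Sox11: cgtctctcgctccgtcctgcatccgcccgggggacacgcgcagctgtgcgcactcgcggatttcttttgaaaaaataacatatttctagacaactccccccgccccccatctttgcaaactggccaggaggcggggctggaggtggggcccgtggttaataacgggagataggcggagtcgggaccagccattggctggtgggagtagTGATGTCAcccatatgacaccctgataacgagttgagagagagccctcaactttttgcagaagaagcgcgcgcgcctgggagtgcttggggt

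Klf6: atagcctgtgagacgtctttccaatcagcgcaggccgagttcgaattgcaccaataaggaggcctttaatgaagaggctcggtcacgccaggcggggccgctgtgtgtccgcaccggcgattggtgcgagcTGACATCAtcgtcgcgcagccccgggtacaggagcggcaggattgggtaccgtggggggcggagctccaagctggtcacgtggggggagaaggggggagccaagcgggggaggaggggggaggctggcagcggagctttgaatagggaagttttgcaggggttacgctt

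The Atf3 window is chr1:191183284-191183583 on the minus strand, a start inside the annotated gene, and its CRE core begins at -8. In Jun (chr4:95052173-95052472, minus strand) TGACATCA begins at -45. Sox11 (chr12:27342669-27342968, minus strand) has the octamer in the other orientation at -42, and Klf6 (chr13:5861239-5861538, plus strand) has it at -119. The octamer was thus in 3 of 8 windows, but the match in Jun was known in advance, because the octamer comes from the Jun promoter. It was in 3.62% of 32851 RefSeq windows of the same length, and TGACGT was in 7.51% of them. The Jun match does not count towards a comparison with that share. None of the 8 windows held the AP-1 heptamer TGANTCA (7.81% of all windows), the full CRE TGACGTCA (1.79%), which contains TGACGT, the C/EBP palindrome TTGCGCAA (0.183%), GGCGCC (11.9%) or TATAAA (13.6%). The E-box CACGTG was in the windows of Klf6 and Klf4 (7.15% of all), and the CACCC box CCACNCCC in those of Klf7 and Creb3 (17.6%). These are matches of letters in 1 window a gene and describe no binding.

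**Figure D1:**
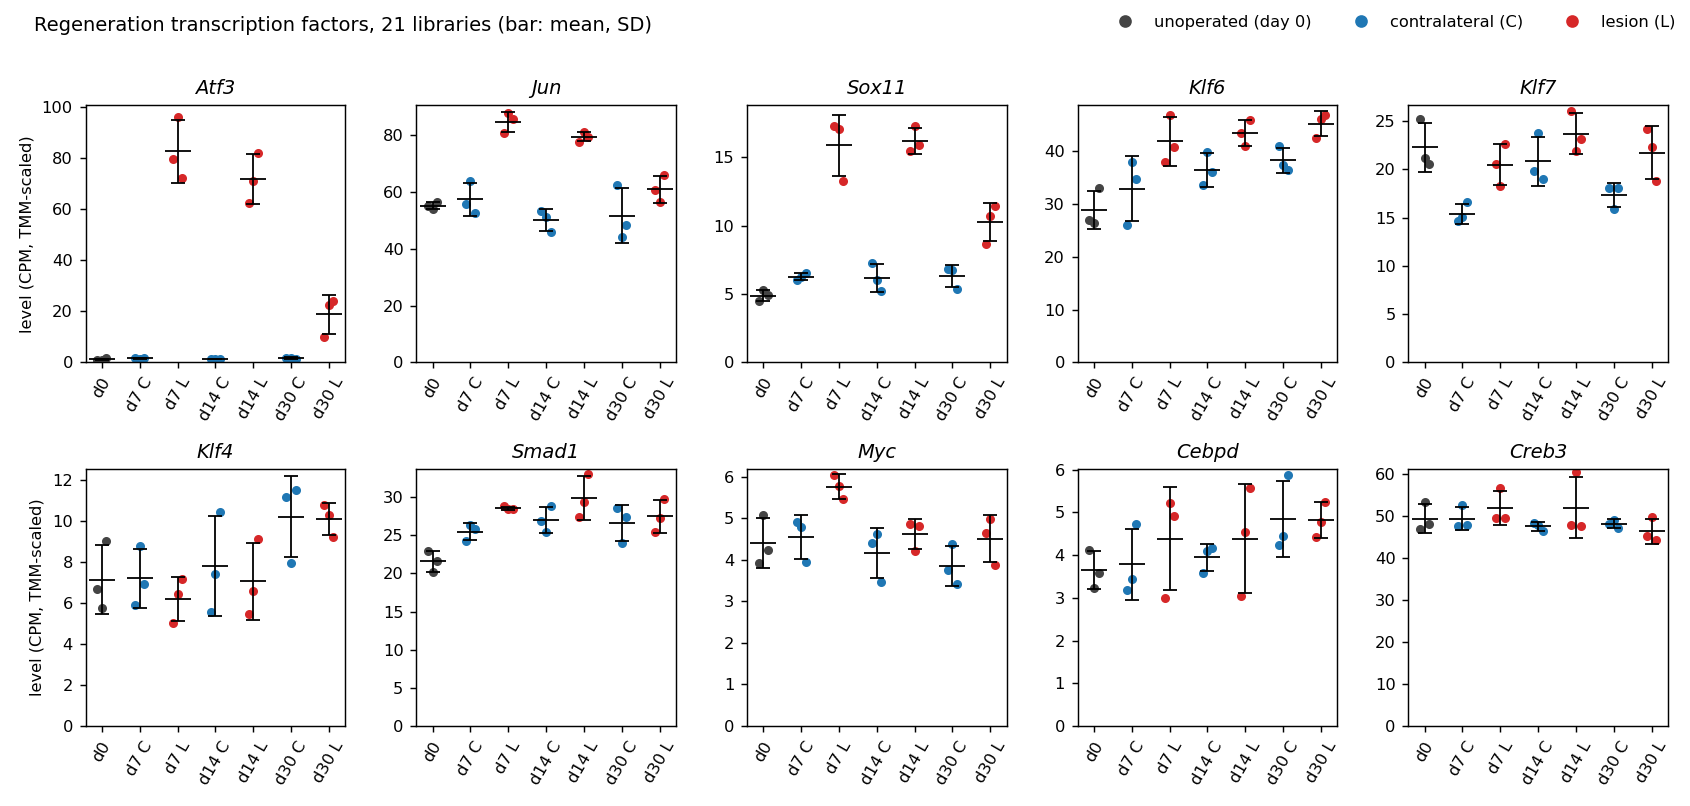
Level of each of the 10 genes in CPM (TMM-scaled, each panel on its own axis from 0) in every library of the 7 groups, with the mean and SD of 3 libraries; d is the day, C contralateral and L lesion. Atf3, Jun and Sox11 stand above both control sides on days 7 and 14, while Klf4, Cebpd and Creb3 overlap between the sides on every day.

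Between the lesioned and the contralateral side, Atf3, Jun and Sox11 were called on day 7 and on day 14, and Atf3 and Sox11 on day 30, all of them higher on the lesioned side. That is 3 of 10 genes on day 7, where 1.56% of all genes were called higher, 3 of 10 on day 14, where 2.58% were, and 2 of 10 on day 30, where 1.04% were. None of the 10 was called lower by edgeR, against 0.0942%, 1.31% and 0.121% of all genes. At an unadjusted p under 0.05 edgeR put 6, 4 and 5 of the 10 apart, against 7.31%, 18.4% and 7.75% of all genes, and DESeq2 called 4, 3 and 2, against 1.83%, 4.69% and 1.35%. The median log2 difference of the 10 genes was 0.34, 0.18 and 0.23 on days 7, 14 and 30, against -0.01, 0.00 and 0.00 over all genes. All 3 lesion libraries lay above all 3 contralateral ones for 6, 4 and 4 of the 10 genes, where 7.26%, 10.7% and 9.71% of all genes did so.

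Atf3, a stress-induced leucine-zipper factor that is scarce in uninjured neurons, spans chr1:191170296-191218039 on the minus strand (GRCm38) and its exons overlap no other gene. On day 7 its level was 79.8, 96.0 and 72.2 CPM on the lesioned side and 1.64, 1.35 and 1.61 CPM on the contralateral side. On day 14 the lesion libraries had 62.4, 71.0 and 81.9 CPM and the contralateral ones 1.27, 1.30 and 1.19 CPM. All 6 lesion libraries of these days stood far above the 6 contralateral ones, and the 2 lesion groups overlapped each other. The log2 differences were 5.75 ± 0.31 (SE, adjusted p 2.1e-08) on day 7 and 5.84 ± 0.32 (1.8e-08) on day 14, or 54.0- and 57.3-fold between group means. On day 30 the lesion libraries had dropped to 10.1, 22.3 and 24.0 CPM, against 1.83, 1.86 and 1.41 CPM on the other side. The groups still did not overlap, and the difference was 3.45 ± 0.32 (adjusted p 2.2e-05), or 11.1-fold; fitted on these 2 groups alone its adjusted p was 0.0746. Lesion replicate 1 of day 30, the deepest library of the operated groups, was the low value, and without it the difference was 3.77. In unoperated pons Atf3 stood at 0.99, 1.08 and 1.52 CPM, and the contralateral side differed from that by 0.35 ± 0.45 on day 7 (adjusted p 0.72), 0.06 on day 14 (0.96) and 0.49 ± 0.44 on day 30 (0.52).

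Jun, the AP-1 subunit that JNK phosphorylates, lies at chr4:95049034-95052222 on the minus strand (GRCm38); its exon overlaps the opposite-strand transcript Junos, and reads of the 2 genes cannot be told apart, since no source says whether counting used strand. Unlike Atf3 it was well expressed without a lesion, at 55.0, 54.1 and 56.4 CPM on day 0. On day 7 the lesioned side had 80.8, 87.7 and 85.6 CPM and the contralateral side 55.9, 63.8 and 52.4 CPM. On day 14 the values were 77.7, 81.0 and 79.5 CPM against 53.4, 51.0 and 45.9 CPM. The sides did not overlap on either day, and the log2 differences were 0.56 ± 0.09 (adjusted p 0.00049) and 0.66 ± 0.09 (4.4e-05), or 1.48- and 1.58-fold. On day 30 the sides overlapped, with 60.6, 56.4 and 65.8 CPM on the lesioned and 62.6, 44.3 and 48.2 CPM on the contralateral side. The difference of 0.23 ± 0.09 was not called (adjusted p 0.47). Without contralateral replicate 1, the highest of its group, Jun differed by 0.40 with an adjusted p of 0.012. That was the lowest of 14 alternatives, which ran up to 0.875.

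Sox11, a SoxC factor of developing neurons, lies at chr12:27334264-27342574 on the minus strand (GRCm38), with no exon shared with another gene. Its level on day 7 was 17.3, 17.1 and 13.3 CPM on the lesioned side and 6.01, 6.28 and 6.52 CPM on the contralateral side. On day 14 the lesion libraries had 15.4, 17.3 and 15.9 CPM and the contralateral ones 7.29, 6.02 and 5.21 CPM. Sox11 was 2.53- and 2.62-fold higher on these days, with log2 differences of 1.33 ± 0.13 (adjusted p 1.5e-07) and 1.39 ± 0.13 (5e-08). On day 30 it was at 8.69, 10.7 and 11.4 CPM against 6.84, 6.75 and 5.35 CPM. The sides still did not overlap, at 1.62-fold and a log2 difference of 0.70 ± 0.13 (adjusted p 0.0039). The call was lost without contralateral replicate 3, the lowest control, where the difference was 0.59 and the adjusted p 0.0609. That fit also uses fewer samples.

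The 3 Krüppel-like factors were not called between the sides on any day. Klf6, which favours axon growth (chr13:5861482-5870394, plus strand, GRCm38), had 37.9, 46.8 and 40.8 CPM on the lesioned side on day 7 and 26.0, 37.9 and 34.7 CPM on the contralateral side. On day 14 the 3 lesion libraries, at 43.4, 41.0 and 45.9 CPM, were all above the contralateral 33.5, 39.8 and 36.0 CPM, and on day 30 the 42.4, 46.2 and 46.9 CPM of the lesioned side were above 40.9, 37.3 and 36.5 CPM. Its log2 differences were 0.35 ± 0.11 (adjusted p 0.20), 0.25 (0.22) and 0.24 (0.63). The lesion libraries were thus apart from the controls on days 14 and 30, by a margin too small for the call. Leaving out contralateral replicate 2 on day 7 gave an adjusted p of 0.0484, the lowest of 14 alternatives, which ran up to 0.665.

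Klf7 (chr1:64029447-64122282, minus strand, GRCm38, with the opposite-strand genes Gm26649 and Gm13748 over its exons) also favours axon growth. It had 20.6, 18.3 and 22.6 CPM on the lesioned side on day 7 against 14.6, 15.1 and 16.6 CPM. The sides did not overlap, at a log2 difference of 0.41 ± 0.11 and an adjusted p of 0.056, just short of the call. DESeq2 gave 0.042, and over 14 alternatives the adjusted p ran from 0.00294 to 0.375, the highest without lesion replicate 3. On day 14 the sides overlapped, and on day 30 they were apart again, at 24.1, 22.3 and 18.8 CPM against 18.1, 15.9 and 18.1 CPM (0.33 ± 0.11, adjusted p 0.23). Klf4 (chr4:55527143-55532466, minus strand, GRCm38), which restrains axon growth, was the member whose fitted difference was below 0 on all 3 days: -0.21 ± 0.25 (adjusted p 1), -0.14 ± 0.24 (0.82) and -0.02 ± 0.23 (1). Its libraries overlapped each time, from 5.02 to 7.16 CPM against 5.90 to 8.77 CPM on day 7 and from 9.24 to 10.8 CPM against 7.94 to 11.5 CPM on day 30.

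Smad1, the BMP transducer (chr8:79338395-79399518, minus strand, GRCm38), had 28.8, 28.4 and 28.5 CPM on the lesioned side on day 7 and 24.3, 26.4 and 25.8 CPM on the contralateral side. The lesion libraries were all higher, but the difference was only 0.16 ± 0.08 on the log2 scale and was not called (adjusted p 0.73), and on days 14 and 30 the sides overlapped (0.15 and 0.04). Myc (chr15:61985391-61990374, plus strand, GRCm38), which drives cell growth, had 6.06, 5.77 and 5.47 CPM on the lesioned side on day 7 against 4.93, 4.78 and 3.94 CPM. These libraries too did not overlap without a call, at 0.34 ± 0.15 (adjusted p 0.55), and the later days overlapped, at 0.15 (0.64) and 0.23 (0.80).

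Cebpd, a leucine-zipper factor that answers cytokines (chr16:15887286-15891031, plus strand, GRCm38, opposite Spidr), overlapped between the sides on every day, with 3.00 to 5.23 CPM against 3.18 to 4.72 CPM on day 7 and 3.04 to 5.57 CPM against 3.57 to 4.16 CPM on day 14. Its differences were 0.22 ± 0.21 (adjusted p 0.98), 0.17 (0.73) and -0.02 ± 0.20 (0.99). Creb3, a leucine-zipper factor anchored in the endoplasmic reticulum and also found in axons (chr4:43562332-43567060, plus strand, GRCm38, opposite Tln1 and Gba2), overlapped between the sides as well. It had 49.6, 56.7 and 49.5 CPM on the lesioned side on day 7 and 47.7, 52.6 and 47.9 CPM on the contralateral side. The differences of Creb3 were 0.07 ± 0.08 (adjusted p 0.99), 0.13 (0.40) and -0.05 (0.94).

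**Figure D2:**
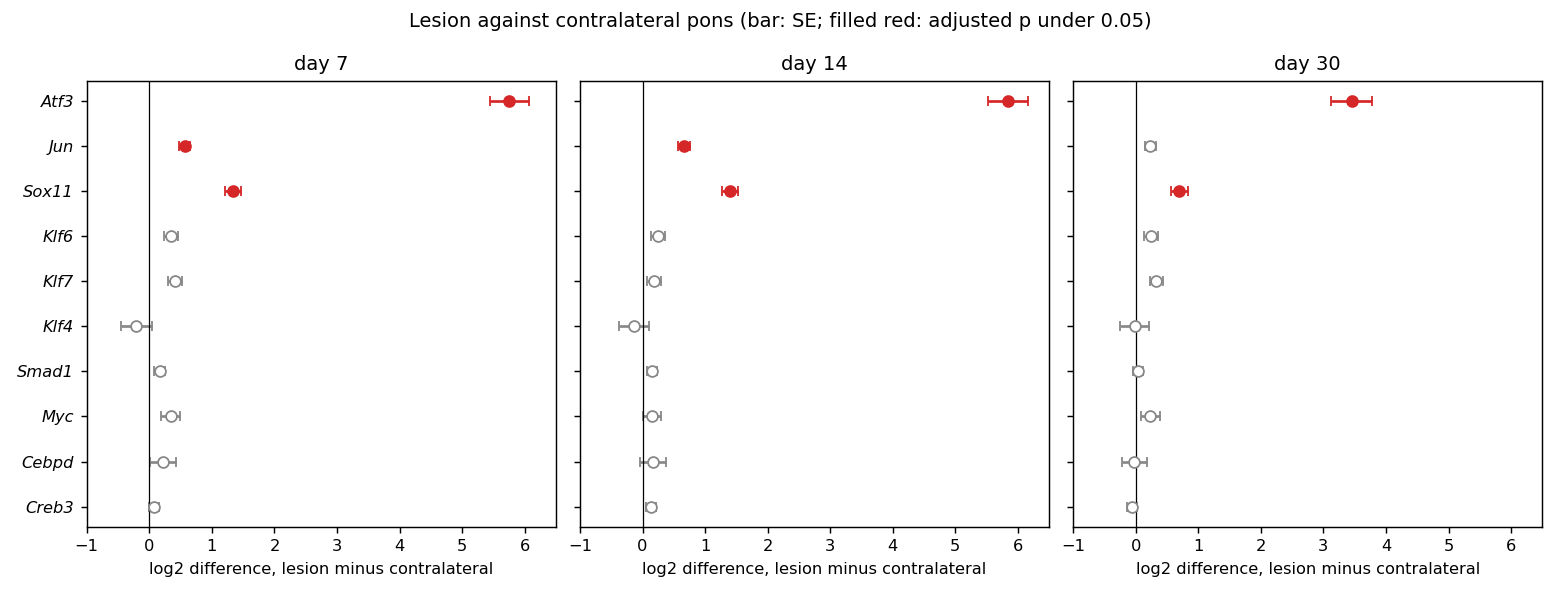
Log2 difference of lesioned minus contralateral side for the 10 genes on days 7, 14 and 30, with the SE from edgeR; filled red points have an adjusted p under 0.05 over all genes. Atf3 stands at 5.75, 5.84 and 3.45, Sox11 at 1.33, 1.39 and 0.70, and the other genes between -0.21 and 0.66.

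Per length, the order of the genes changed with the lesion. On the contralateral side of day 7 Creb3 was the highest at 20.8 ± 1.16 RPKM (SD, n = 3), followed by Jun at 18.0 ± 1.82 RPKM, and Atf3 was the lowest at 0.711 ± 0.075 RPKM, level with Sox11 at 0.754 ± 0.031 RPKM. On the lesioned side of the same day Atf3 led with 38.4 ± 5.66 RPKM, above Jun at 26.6 ± 1.11 RPKM and Creb3 at 21.9 ± 1.73 RPKM. Of the RNA added, Atf3 gained 37.7 RPKM, Jun 8.57 RPKM and Sox11 1.15 RPKM over the contralateral side on day 7. Jun thus gained more per length than Sox11, although its fold was smaller. By day 30 the gains were 7.94, 2.89 and 0.475 RPKM, and Atf3, at 8.73 ± 3.52 RPKM, was again below Creb3 and Jun.

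Ordered by mean CPM over the 7 groups, Atf3 ran from the lesioned side of day 7 (82.6 ± 12.2 CPM, SD, n = 3) and day 14 (71.8 ± 9.76 CPM) to that of day 30 (18.8 ± 7.58 CPM), the 3 contralateral groups and day 0 (1.20 ± 0.28 CPM). Neighbours in this order overlapped except at the steps from day 14 to day 30 lesion, from there to the contralateral groups, and between the contralateral groups of days 7 and 14. Sox11 had the same gaps on either side of the day 30 lesion group (10.3 ± 1.41 CPM), with the lesioned sides of days 14 and 7 above it and all control groups, overlapping in turn, below. Jun had a single gap, between the lesioned sides of day 14 (79.4 ± 1.63 CPM) and day 30 (60.9 ± 4.73 CPM). Myc had its gap below the lesioned side of day 7 (5.77 ± 0.29 CPM), Smad1 above day 0 (21.6 ± 1.36 CPM), and Klf7 above the contralateral sides of days 30 and 7 (17.3 ± 1.27 and 15.4 ± 1.04 CPM). Klf6, Klf4, Cebpd and Creb3 showed no gap between neighbouring groups.

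**Figure D3:**
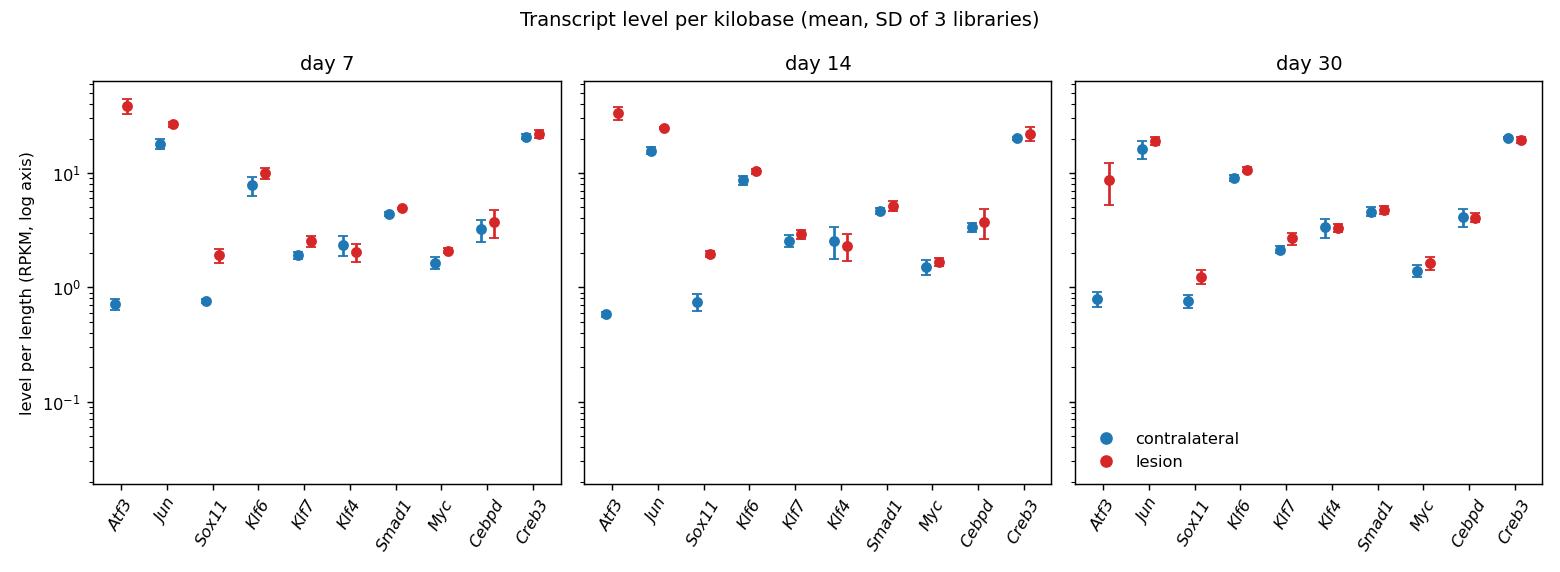
Level per length (RPKM, log axis; mean and SD of 3 libraries) of the 10 genes on each side and day. Atf3 moves from the lowest level on the contralateral side of day 7 (0.711 RPKM) to the highest on the lesioned side (38.4 RPKM), while Creb3 stays at 19.6 to 21.9 RPKM on both sides.

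Against the unoperated pons of day 0, the lesioned side was called higher for 5 of the 10 genes on day 7, where 8.14% of all genes were, for 5 on day 14 (9.78%) and for 4 on day 30 (12.7%). Atf3, Sox11, Klf6 and Smad1 were called on all 3 days and Jun on days 7 and 14. Day 0 is 1 set of libraries for all these comparisons. It is deeper than every other group, and age rises with the day. The lane number is the same on days 0 and 7 and another on days 14 and 30, but repeated index sequences set days 0 and 7 apart in sequencing. The values are therefore given side by side. The mitochondrial share moved with the day as well, to 5.84% to 7.29% in the 6 libraries of day 30, and its part in these values was not tested. Atf3 differed by 6.10 ± 0.29, 5.90 and 3.95 ± 0.30 and Sox11 by 1.69 ± 0.13, 1.73 and 1.06. Jun differed by 0.62 ± 0.09 (adjusted p 3.4e-05), 0.53 (0.00019) and, on day 30, 0.14 (0.29). Klf6 was at 27.0, 26.5 and 33.0 CPM on day 0, below all 9 lesion libraries, and its log2 differences were 0.54 ± 0.11 (adjusted p 0.0018), 0.59 (0.0005) and 0.65 (0.00015). Smad1 was at 23.0, 20.2 and 21.6 CPM on day 0, again below all 9, and differed by 0.40 ± 0.08 (0.001), 0.47 (0.00012) and 0.35 (0.0025).

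On the contralateral side the same baseline gave fewer calls. On day 7, 1 of the 10 genes was called lower and none higher (3.66% and 6.84% of all genes), on day 14, 2 were called higher and none lower (9.09% and 6.73%), and on day 30, 2 were called higher and 1 lower (9.32% and 6.81%). The gene called lower was Klf7, at 25.2, 21.2 and 20.6 CPM on day 0 and 14.6, 15.1 and 16.6 CPM on the contralateral side of day 7, a log2 difference of -0.53 ± 0.11 (adjusted p 0.0011). On day 30 Klf7 differed by -0.36 ± 0.11 (0.019), and on day 14 by -0.10 (0.58). On the lesioned side Klf7 differed from day 0 by -0.12, 0.09 and -0.03, none called. On days 7 and 30 the contralateral side was thus below the day 0 level of Klf7, and the lesioned side was near it.

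Klf6 and Smad1 were called higher than day 0 on the contralateral side as well. Klf6 differed by 0.34 ± 0.11 on day 14 (adjusted p 0.041) and 0.41 ± 0.11 on day 30 (0.013), and Smad1 by 0.32 ± 0.08 (0.0062) and 0.30 ± 0.08 (0.01). These are smaller than on the lesioned side, but the difference between the sides was not called for either gene, as given above. Leaving out day 0 replicate 1 or 2, or a contralateral replicate, took Klf6 to an adjusted p of up to 0.185 on day 14 and 0.0672 on day 30; Smad1 stayed called on day 14 and reached 0.0738 on day 30. The call of Klf7 on day 30 was lost without day 0 replicate 1 (adjusted p 0.119) or contralateral replicate 2 (0.124), and that of day 7 was not lost without any library. Sox11 was 0.36 ± 0.14, 0.33 and 0.36 above day 0 on the contralateral side (adjusted p 0.10, 0.10 and 0.072), with all 9 contralateral libraries but 1 above the highest day 0 library, 5.29 CPM. Klf4 and Cebpd differed from day 0 by 0.52 ± 0.23 and 0.42 ± 0.20 on the contralateral and by 0.50 ± 0.22 and 0.40 ± 0.19 on the lesioned side on day 30, and none of these was called.

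**Figure D4:**
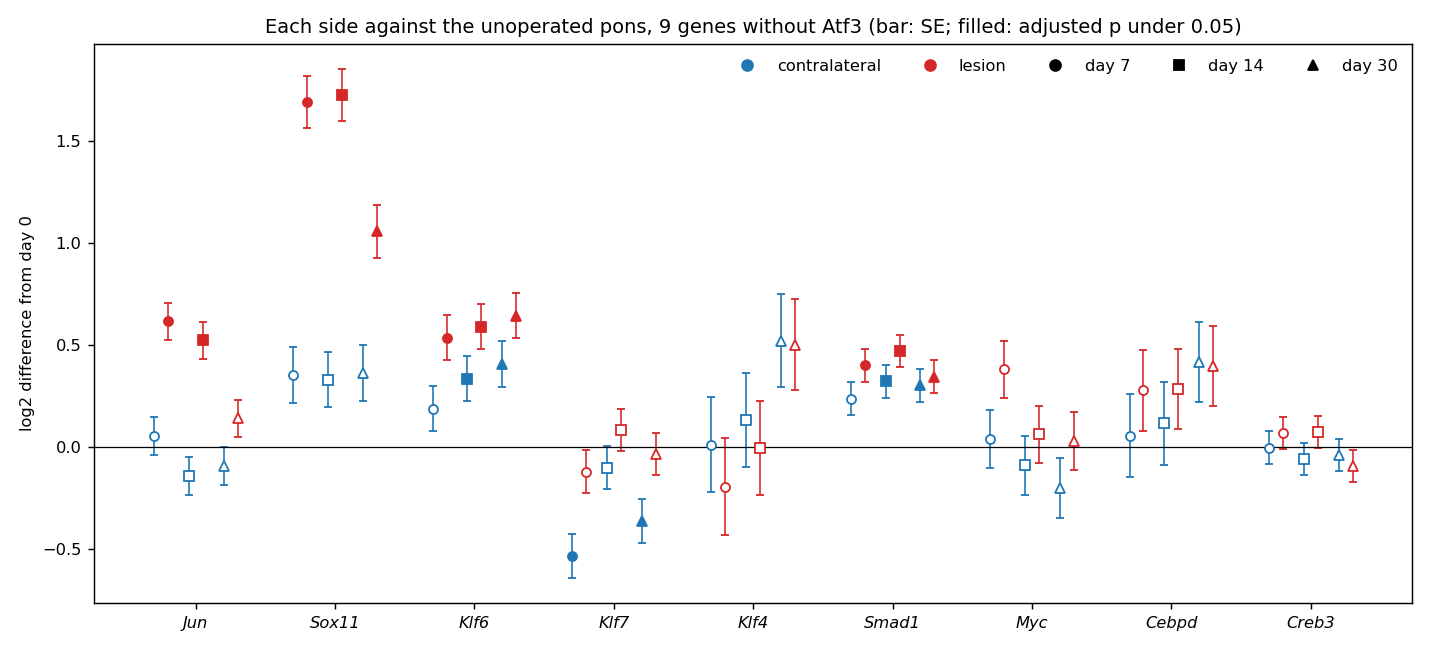
Log2 difference from unoperated pons (day 0) for 9 genes, Atf3 left out for its scale, with the SE from edgeR; blue is the contralateral and red the lesioned side, circles day 7, squares day 14 and triangles day 30, and filled symbols have an adjusted p under 0.05. Klf7 is filled below 0 on the contralateral side (-0.53 on day 7), while Klf6 and Smad1 are filled above 0 on both sides on days 14 and 30.

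The drop of the lesion effect by day 30 was tested as the difference between the side differences. By edgeR none of the 10 genes was called in any of the 3 comparisons of days, in which 0%, 0.0269% and 0.0807% of all genes were (day 14 minus day 7, day 30 minus day 7 and day 30 minus day 14). At an unadjusted p under 0.05 it put apart 0, 3 and 3 of the 10, against 5.92%, 4.31% and 15.1% of all genes. DESeq2 called 0, 1 and 1 of the 10, and 1, 25 and 84 genes among all genes. Atf3 changed by 0.09 ± 0.54 from day 7 to 14 (adjusted p 0.99), by -2.30 ± 0.53 from day 7 to 30 (0.35) and by -2.39 ± 0.54 from day 14 to 30 (0.13). DESeq2 gave adjusted p of 0.00023 and 8.8e-05 for the last 2 of these, and without lesion replicate 1 of day 30 edgeR gave Atf3 -1.98 (0.0016) and -2.07 (0.0011). With the replicate number as a block, the change of Atf3 from day 14 to 30 was -2.42 (0.028). Sox11 changed by -0.64 ± 0.19 from day 7 to 30 (0.62) and by -0.70 ± 0.19 from day 14 to 30 (0.16), and Jun by -0.33 ± 0.13 (1) and -0.43 ± 0.13 (0.17). Without lesion replicate 1 of day 14, the change from day 14 to 30 was called for Atf3 (0.032) and Sox11 (0.037).

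The related lists are read against the shares of all genes called higher, 1.56%, 2.58% and 1.04% on days 7, 14 and 30. Counts at an unadjusted p under 0.05 by edgeR are read against 7.31%, 18.4% and 7.75% of all genes. Those called by DESeq2 are read against 1.83%, 4.69% and 1.35%. These last 2 sets of shares take both directions together. Of 24 other AP-1, ATF and CREB genes, Crem and Fosl2 were called higher on the lesioned side on day 7, Crem on day 14 and none on day 30. In either direction, 2, 8 and 1 of the 24 had an unadjusted p under 0.05, and DESeq2 called 2, 2 and 0. The list's median log2 differences were 0.05, 0.11 and 0.07. Crem, which encodes CREM activators and the repressor ICER, rose from 9.54 ± 1.03 to 15.3 ± 0.94 CPM on day 7 (SD, n = 3; log2 difference 0.69 ± 0.10, adjusted p 5.34e-05) and was 0.52 ± 0.10 higher on day 14 (0.00122). Fosl2, an AP-1 partner of Jun, was 0.50 ± 0.12 higher on day 7 (0.0298). Of 4 tested C/EBP relatives, Cebpa was called on day 14 alone (0.41 ± 0.12, adjusted p 0.0487), and of 13 tested Krüppel-like factors, Klf10 was (0.52 ± 0.14, 0.0342). At an unadjusted p under 0.05 edgeR put apart 1, 2 and 0 of these C/EBP relatives and 0, 1 and 0 of these Krüppel-like factors. DESeq2 called 0, 1 and 0 in each list. Neither SoxC relative, Sox4 or Sox12, was called on any day, by edgeR or DESeq2, or had an unadjusted p under 0.05.

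Among 21 genes of BMP and Smad signalling only Acvr1, a type I receptor that acts upstream of Smad1, was called, at 32.1 ± 4.20 against 22.7 ± 1.08 CPM on day 7 (0.50 ± 0.09, adjusted p 0.00129) and 0.45 ± 0.09 higher on day 14 (0.00311). In either direction, 1, 5 and 0 of the 21 had an unadjusted p under 0.05 on days 7, 14 and 30, and DESeq2 called 1, 1 and 0. Of 11 genes of the Myc network none was called on any day by edgeR or DESeq2, and 1, on day 14, had an unadjusted p under 0.05. Of 14 genes of the DLK and JNK pathway upstream of Jun edgeR called none. In either direction, 2, 8 and 0 had an unadjusted p under 0.05 on days 7, 14 and 30 (7.31%, 18.4% and 7.75% of all genes). DESeq2 called 0, 1 and 0 (1.83%, 4.69% and 1.35% of all genes), and the medians were -0.04, -0.14 and -0.02. Of 17 other transcription factors tied to axon regeneration, 2, 3 and 0 were called higher. DESeq2 called 2, 4 and 1 of them, and 4, 5 and 7 had an unadjusted p under 0.05, to be read against the same shares. Stat3, which carries cytokine signals of the injured nerve, was 0.37 ± 0.06 higher on day 7 (adjusted p 0.000227) and 0.31 ± 0.06 on day 14 (0.00155). Nfil3, a leucine-zipper repressor, was 0.64 ± 0.13 and 0.67 ± 0.13 higher on these days (0.00359 and 0.00156).

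Effector genes carry out the growth that such factors set off, and many are known for their rise in regenerating neurons. Of 20 such genes 13, 12 and 5 were called higher on the lesioned side on days 7, 14 and 30 (1.56%, 2.58% and 1.04% of all genes). None was called lower (0.0942%, 1.31% and 0.121%), and the medians were 0.55, 0.68 and 0.24. DESeq2 called 13, 12 and 6 (1.83%, 4.69% and 1.35% of all genes). By edgeR 15, 15 and 11 had an unadjusted p under 0.05 (7.31%, 18.4% and 7.75%). Sprr1a, a neurite growth protein, stood at 226 ± 64.0 CPM against 0.316 ± 0.022 CPM on day 7 and 63.3 ± 24.9 CPM against 0.491 ± 0.493 CPM on day 30. Itga7, a laminin receptor subunit, was 2.01 ± 0.11, 2.06 ± 0.11 and 0.97 ± 0.12 higher on the log2 scale, and Cd44, an adhesion receptor, 1.81 ± 0.15, 2.12 ± 0.16 and 1.39 ± 0.16. Tubb2b, a growth-phase tubulin, was 0.70 ± 0.08 and 0.97 ± 0.08 higher on days 7 and 14 and 0.31 ± 0.08 on day 30, which was not called (adjusted p 0.0803). Sprr1a, Itga7, Cd44 and Tubb2b all had their lowest day 30 lesion value in replicate 1, at 35.1, 38.6, 14.5 and 70.6 CPM. This library was also lowest for Atf3 and Sox11. The level of Jun in that library was the middle of the 3, its summed motor neuron markers were the highest (531 CPM against 481 and 494), and its microglia markers were level with the others (450 CPM against 447 and 451).

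The genes whose log2 CPM ran most like a member over the 21 libraries were ranked by Pearson correlation among 15479 genes with a mean of at least 1 CPM, leaving out clone-based symbols. The libraries share groups, lanes and depth, so these are descriptions. Nearest to Atf3 were Sprr1a (r = 0.986), Gpr151 (0.984), Adam8 (0.981) and Cd44 (0.979); Sox11 came at rank 11 (0.973) and Jun at rank 113 (0.878). Nearest to Sox11 was Atf3 itself, then Adgrd1 (0.959), Gal (0.958) and Stmn2 (0.958). Jun had other neighbours: Procr (0.963), Slc39a6 (0.948), Tuba1a (0.942) and Azin2 (0.941). The remaining members followed Atf3 less closely, from Klf6 (0.687), Smad1 (0.638) and Myc (0.563) to Klf7 (0.394), Creb3 (0.311), Cebpd (0.235) and Klf4 (-0.199).

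Within the 9 lesion libraries, where the lesion itself is constant, Atf3 still ran with Sox11 (r = 0.953) and Jun (0.917), and its nearest genes were Gadd45a (0.994), Itga7 (0.989), Sprr1a (0.988) and S100a11 (0.987). Klf6, which had followed Atf3 over all libraries, did not follow it there (-0.213). Klf4 ran the other way: its correlation was -0.755 with Atf3, -0.752 with Jun and -0.808 with Sox11 over these 9 libraries. Among them the day 30 group was highest for Klf4 and lowest for the other 3. The high day 30 level of Klf4 was not particular to the lesioned side. It was 10.1 ± 0.78 CPM there and 10.2 ± 1.97 CPM on the contralateral side (SD, n = 3).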

How the data were processed

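RNA-seq libraries (TruSeq Stranded mRNA, 300 ng RNA, 50-base single reads, per the labels) were aligned by the authors with Rsubread at default settings to GENCODE M7 (GRCm38.p4), and featureCounts gave the deposited count per gene; the strand setting is not given in the sources used here. CASAVA 1.8.2 is named in the submitters' processing notes. The authors also deposited log2 CPM values from limma's voom; all 21 of its columns best matched the count column of the same sample. Groups came from titles and, for day 30, from the sample descriptions.

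From the counts, genes with a summed count above 29, the 32nd percentile that the series' design text sets among 32815 genes with a count, were kept (22294). edgeR 4.0.16 (R 4.3.3) fitted TMM-scaled counts with 1 coefficient for each of 7 groups and robust quasi-likelihood tests, adjusted by Benjamini-Hochberg over all genes kept; SE is the log2 difference over the root of F. RPKM used the deposited gene length. Correlations used log2 CPM with a prior count of 2. The total count per library, 17358868 to 41448945, sets the precision of low genes such as Atf3 without a lesion (25 to 59 counts). The procedure was tested on simulated data. Alternatives were DESeq2 1.42.0, limma 3.58.1 (voom, and on the deposited log2 values), other size factors and filters, the compared groups alone, the replicate number as a block, and each library left out. Deviations of the left and right library of the same number correlated at 0.17 to 0.27 on day 7 and 0.19 to 0.21 on day 30, so numbers go with a pairing there. On day 14 numbers 1, 2 and 3 gave 0.27, -0.00 and 0.17, and different numbers gave -0.24 to 0.10, so number 2 showed no pairing. The pairing comes from the titles and this check, and the labels do not say that both sides of a number are of 1 animal.

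All 10 members are described, with from each related list at most 4 genes called on any day, taken by adjusted p, and the 4 genes nearest in pattern. The values of 1 gene that this rule selects are not reported here. Members and lists were chosen with earlier results of these data known. Gene positions are from GENCODE M21 (GRCm38) and promoters from RefSeq.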

Additional observations from a re-analysis of the deposited data

How the results depend on the processing

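No called difference of a member changed sign: over 28 called differences and 352 alternatives, 6 lost the call in at least 1 alternative, and of 92 uncalled differences over 1358 alternatives 16 gained it; 34 uncalled differences had the other sign in at least 1 alternative. No group mean of a member moved by over 1 SD on plain library totals. The cause of the changes below was not tested, except that fitting the compared groups alone or leaving a library out uses fewer samples.

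Members called between the sides numbered 3 to 4 on day 7 and 1 to 3 on day 30 when single libraries were left out, the 1 without contralateral replicate 3. With the compared groups alone, Atf3 lost its day 30 call (adjusted p 0.0746) while Klf6 (0.0323) and Klf7 (0.043) gained theirs, and 435 genes in all were called between the sides on day 14 and 569 on day 30, against 866 and 259; leaving out single libraries gave 432 (without contralateral replicate 2) to 1983 (without lesion replicate 1) on day 14 and 158 (without contralateral replicate 3) to 218 on day 30, with 167 without lesion replicate 3. Without the other libraries of day 14 it was 439 and 641 (lesion replicates 2 and 3), 521 and 492 (contralateral replicates 1 and 3). Against day 0, the contralateral side had 2 members called on day 7 with DESeq2 and with filterByExpr, and leaving out single libraries gave 1 to 2 on day 7, 1 to 2 on day 14 and 1 to 4 on day 30. DESeq2 and the deposited log2 values each called 1 member, Atf3, for day 30 minus day 7 and 1, Atf3, for day 30 minus day 14; without the low count filter 2, Jun and Sox11, were called for the latter. Leaving out single libraries gave 0 to 1 and 0 to 2 for these differences.

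With the replicate block the members called between the sides were again 3, 3 and 2 on days 7, 14 and 30, and 1 (Atf3) for day 30 minus day 14; it changed no other call of a member. Day 0 has no second side, so the block was not fitted there.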
